A study of Homo sapiens with 18 samples.

Results

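The loci described here are the genes of type miRNA in GENCODE release 29, each spanning one annotated microRNA hairpin, selected on measured expression: each had at least 1 TPM (an abundance unit: the share of a library, scaled by transcript length), summed over its transcripts, in 3 or more of 18 libraries. The rule kept 80 of the 1828 miRNA genes in the deposited table, which covers 57865 genes in all. HEK293T, a human line of embryonic kidney origin, was the source of both kinds of library: large RNA of the cells, and large RNA of their extracellular vesicles (EVs). There were 6 groups of 3 libraries: EVs and cells of wild type, of ATG7-/- clone F2 and of ATG12-/- clone D9. Each knockout was represented by 1 clone, so clone and genotype cannot be told apart. All groups, wild type included, had been without serum for 24 h, and no group with serum was compared. The labels call the libraries of a group biological replicates, and the p-values measure the spread among these libraries. ATG7 and ATG12 belong to the machinery that joins LC3 to membranes, and the study asked whether the RNA of EVs depends on it.

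A microRNA begins as a hairpin within a longer primary transcript. The nuclear Drosha and DGCR8 complex cuts out the hairpin, exportin-5 with RAN carries it to the cytoplasm, and Dicer trims it to a short duplex. One strand is then held by an Argonaute protein and pairs with target RNAs mainly through its seed, bases 2 to 8. Many hairpins lie in introns of host genes and are transcribed with them. The reads here were single ends of 50 bases from a large-RNA library, longer than a mature microRNA, so the values concern RNA that covers the hairpin interval and not the mature product.

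The mature sequences of the loci on which the results turn are given first, with the seed in capitals, 5′ to 3′, from RefSeq on GRCh38.p14. Of the 80 loci, 62 matched a RefSeq entry by symbol and 60 of these had a mature sequence. The first set is from loci above 0 in every library (MIR663A, MIR663B, MIR3661 and MIR1282), or in 12 to 16 of them (MIR3665, MIR1279 and MIR762).
miR-663a: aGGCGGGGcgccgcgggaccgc
miR-663b: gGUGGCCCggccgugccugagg
miR-3661: uGACCUGGgacucggacagcug
miR-1282: uCGUUUGCcuuuuucugcuu
miR-3665: aGCAGGUGcggggcggcg
miR-1279: uCAUAUUGcuucuuucu
miR-762: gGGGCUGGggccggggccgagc
The GC content of these ran from 29.4% in miR-1279 to 90.9% in miR-663a and miR-762. No seed was shared within this set.

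The second set is from the neighbours MIR215 and MIR194-1, of which MIR215 was the only locus called between knockout and wild-type cells.
miR-215-5p: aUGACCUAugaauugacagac
miR-194-5p: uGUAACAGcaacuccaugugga

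The third set shows the seeds that more than 1 locus shared. The seed CAGUAGU came from MIR199A1, MIR199A2 and MIR199B, ACAUUCA from MIR181A2 and MIR181B2, CCAGUGU from MIR199A1 and MIR199A2, and GACCUGG from MIR3661 and MIR631.
miR-199a-3p: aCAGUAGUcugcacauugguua
miR-199b-3p: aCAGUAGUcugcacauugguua
miR-199a-5p: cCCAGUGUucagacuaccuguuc
miR-181a-5p: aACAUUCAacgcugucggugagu
miR-181b-5p: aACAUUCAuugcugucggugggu
miR-631: aGACCUGGcccagaccucagc

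What a TPM value of a hairpin stands for is set out first, with a length model chosen after the data were seen. The hairpins of the 80 loci were 53 to 180 bases long, with a median of 88.5. TPM divides by an effective length, the number of positions at which a fragment can start. With fragments of 250 ± 25 bases (mean and SD of the length model), a 110-base hairpin has an effective length of 4.75 against 1751 for a 2000-base transcript. Under this model 602 of the 705 miRNA values above 0 (85.4%) were whole multiples, within 0.02, of one step per library. With 3 other length models this share was 4.26%, 2.98% and 2.41%. The step was read as 1 fragment, which gives estimated fragments for each value, rounded to whole numbers in each library below, before any sum. One fragment on a 110-base hairpin was worth 30.9 to 157 TPM depending on the library, against 0.0838 to 0.426 TPM on a 2000-base transcript. TPM of a hairpin and of a longer gene are therefore not set against each other below.

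Estimated fragments numbered 660069 to 2592121 per EV library and 436825 to 1268211 per cell library. In EVs 11 to 20 miRNA genes were above 0 in a library, and in cells 47 to 75, with no overlap. Transcripts of all types separated too, with 24204 to 31209 above 0 in an EV library and 37287 to 49019 in a cell library. A separation as such is therefore not particular to miRNA genes. Fragments on miRNA genes made up 0.0292% to 0.0532% of a library in EVs and 0.145% to 0.234% in cells. The 7 loci above 0 in all 18 libraries held 72.7% to 93.5% of the miRNA TPM of a library. Without those 7 loci the ranges were 0.00334% to 0.00965% in EVs and 0.00994% to 0.0144% in cells. In bulk samples such as these, fewer vesicles or cells with an RNA and less of it in each cannot be told apart. Markers listed for the labelled line were mixed. KRT8 was at 97.9 ± 30.8 TPM in cells (SD, n = 9) and VIM at 23.1 ± 5.25. KRT18 and INA were low at 1.35 ± 1.51 and 0.75 ± 0.36. The liver and blood genes ALB and HBB were listed at 0 in every library. NEFM and NEFL of the same list and the blood gene PTPRC are not printed, so this is no full check of the line.

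**Figure D1:**
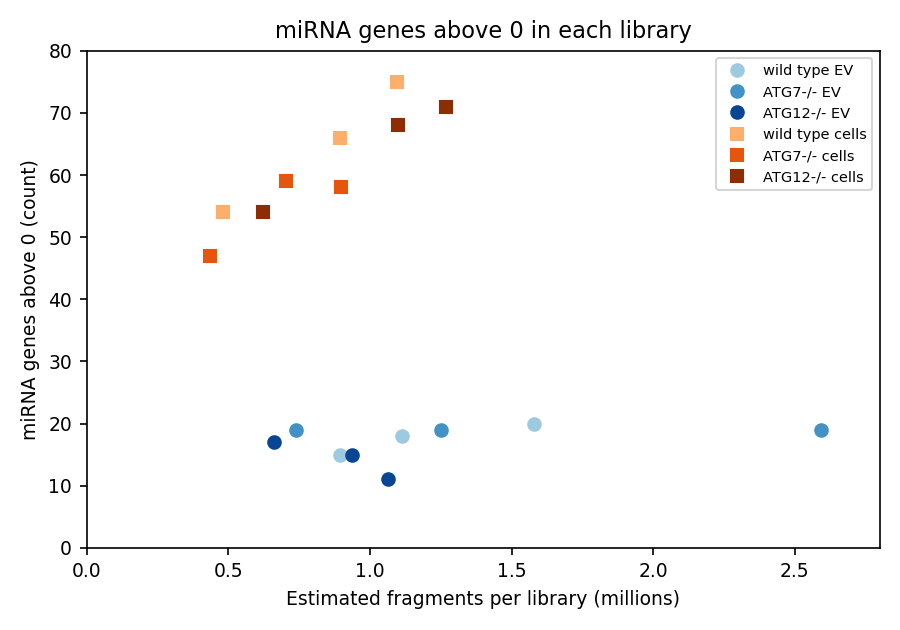
Number of miRNA genes above 0 (y axis) against estimated fragments (x axis, drawn in units of 1e6), 1 point per library, EVs as circles and cells as squares. EV libraries hold 11 to 20 such genes and cell libraries 47 to 75, although the library with the most fragments, 2592121, is an EV library. Transcripts of all types, not drawn, also separate, with 24204 to 31209 above 0 in EV libraries and 37287 to 49019 in cell libraries.

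Most loci rested on few fragments. Of the 80, 7 were above 0 in all 18 libraries, 8 in 10 to 14 or 16 libraries, and 65 in 3 to 9, of which 22 were in exactly 3. The other 73 loci had a median of 9.0 estimated fragments over all 18 libraries together, 38 of them had 10 or fewer, and 21 had 5 or fewer. The lowest value above 0 among the members was 21.2 TPM, so the threshold of 1 TPM worked as a rule on how many libraries had any fragment. In cells 337 of 657 possible values of these 73 loci were above 0 (51.3%), with a median of 1.0 fragment, and 159 of the 337 (47.2%) stood at 1 fragment. In EVs 73 of 657 were above 0 (11.1%), with a median of 5.92 fragments, and 6 (8.22%) stood at 1. EV values of these loci were thus rarer and larger when present, but this was not particular to them. Among all transcripts, 11.6% to 19.2% of values of 5 or fewer fragments stood at 1 fragment in EVs, against 21.3% to 25.9% in cells. A locus could also enter through cell libraries alone, which bears on how rare EV values are. The table has no molecular identifiers and libraries were amplified for 22 cycles, so fragments are not independent molecules and limits from them cover counting error only.

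**Figure D2:**
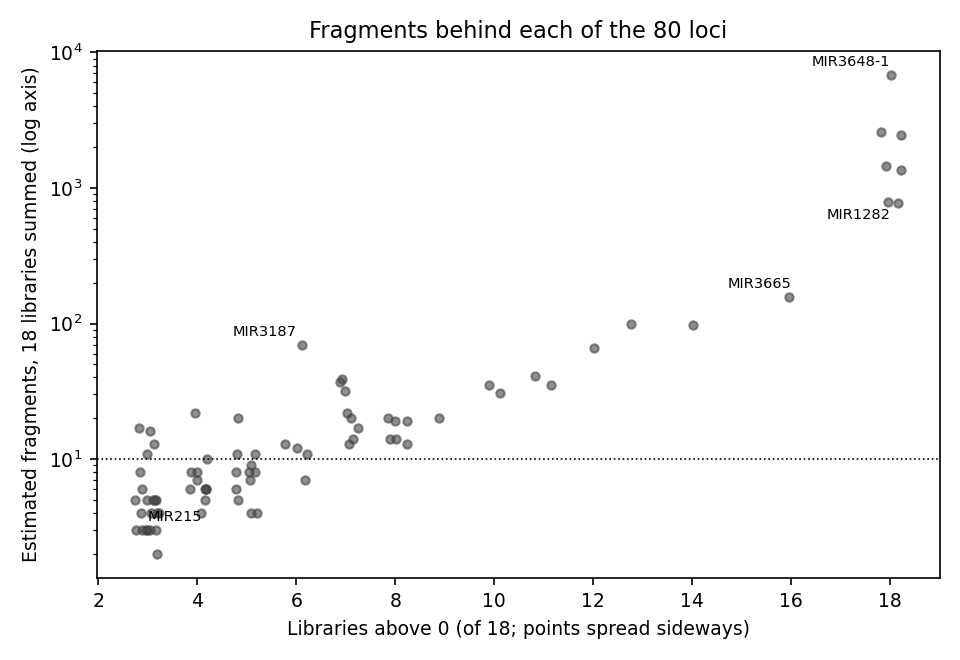
Estimated fragments summed over 18 libraries (y axis, log scale) against the number of libraries above 0 (x axis, points spread sideways), 1 point per locus. The dotted line is at 10 fragments; 38 of the 73 loci not seen in every library lie on or below it, and MIR3648-1 is the highest at 6847.

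MIR3648-1 had the highest level of the 80. It lies at chr21:8208473-8208652 (+ strand, GRCh38), within a ribosomal RNA repeat, in an intron of the lincRNA FP671120.1 on the same strand. Its identical copy MIR3648-2 has no row of its own in the table, so the value stands for both. It had 2549, 1772 and 3145 TPM in wild-type EVs, 1394, 2759.9 and 1480.3 in ATG7-/- EVs and 1649, 2265 and 2575 in ATG12-/- EVs. For cells the values were 34457, 42800.5 and 30111 TPM in wild type, 33779.6, 34977 and 36854 in ATG7-/- and 29145, 33998 and 45128 in ATG12-/-. Every cell library was above every EV library, with 386 to 1198 estimated fragments against 24 to 76. The EV-minus-cell difference on the log2(TPM + 1) scale was -4.37 ± 0.27 in wild type (standard error; limma, adjusted p = 6.85e-08), -4.52 ± 0.27 in ATG7-/- (adjusted p = 6.67e-08) and -4.20 ± 0.27 in ATG12-/- (adjusted p = 1.35e-07). FP671120.1, over its exons, went the other way, with 170 ± 55.1 TPM in EVs and 14.8 ± 3.80 in cells (SD, n = 9) and a wild-type difference of 2.93 ± 0.29 (limma, adjusted p = 9.44e-06).

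The EV-to-cell differences are to be read against all genes: the median of 24647 genes tested was -0.76 in wild type, and -0.48 without scaling or -0.91 when scaled to protein-coding TPM. In the ATG7-/- and ATG12-/- comparisons it was -0.49 and -0.55.

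MIR3687-1 lies on the same repeat, at chr21:8208844-8208904 (+), 61 bases long, and likewise stands for an identical copy. Its EV values spread from 156 to 14182 TPM: 10007, 14182 and 3425 TPM in wild type, 2632, 2164 and 925 in ATG7-/- and 294, 156 and 1238 in ATG12-/-. The cell values were 9749.7, 9105 and 2087 TPM in wild type, 6157, 14554 and 20580.1 in ATG7-/- and 9705, 8368 and 23079 in ATG12-/-. The wild-type EV values were all above those of both knockouts, which share these wild-type controls, but neither difference passed: -2.08 ± 0.75 for ATG7-/- (limma, adjusted p = 0.559) and -4.27 ± 0.75 for ATG12-/- (adjusted p = 0.108). Without ATG12-/- EV replicate 3 the latter was -5.09 with an adjusted p of 0.0357. EVs and cells of wild type differed by -0.04 ± 0.78 (limma, adjusted p = 0.989), those of ATG7-/- by -3.04 ± 0.78 (adjusted p = 0.0222) and those of ATG12-/- by -5.14 ± 0.78 (adjusted p = 0.000887). The differences between genotypes in this EV-to-cell step did not pass: -3.0 ± 1.11 for ATG7-/- (limma, adjusted p = 0.427) and -5.10 ± 1.11 for ATG12-/- (adjusted p = 0.0923). The ATG7-/- EV-to-cell call was lost without EV replicate 3 (-2.59, adjusted p = 0.0848), cell replicate 2 (-2.94, 0.0588) or cell replicate 3 (-2.68, 0.0759).

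Because the 2 loci share a repeat, their fragments were also set against each other, a ratio chosen after the values were seen and given with no test. Wild-type EVs had 183, 374 and 50.9 MIR3687-1 fragments per 100 MIR3648-1 fragments. ATG7-/- EVs had 29.2 to 88.2 and ATG12-/- EVs 3.23 to 22.5. Cells had 3.24 to 13.2 in wild type, 8.51 to 26.1 in ATG7-/- and 11.5 to 23.9 in ATG12-/-. Wild-type and ATG7-/- EVs were above all cell libraries, and ATG12-/- EVs overlapped the range of cells. The ranges of wild-type and ATG7-/- EVs overlapped. MIR6724-1, also on the repeat, had 5 fragments in all.

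**Figure D3:**
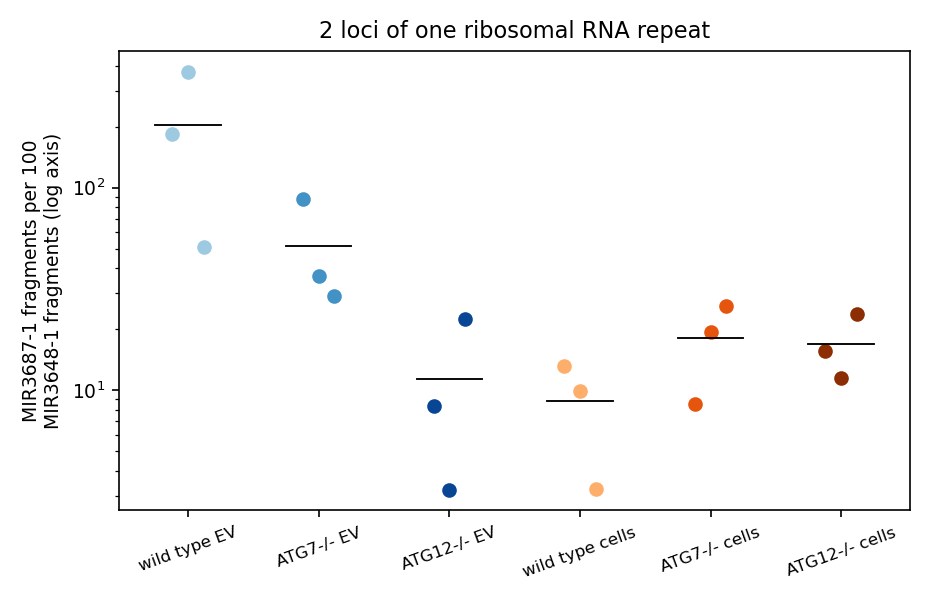
MIR3687-1 fragments per 100 MIR3648-1 fragments (y axis, log scale) in each group; points are libraries and lines group means. Wild-type EVs average 203, ATG7-/- EVs 51.3, ATG12-/- EVs 11.3, and the cell groups 8.79 to 18.

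MIR663A and MIR663B carry GC-rich hairpins of similar name, whose mature sequences, printed above, have different seeds. MIR663A (chr20:26208186-26208278, -) overlaps an exon of its host MIR663AHG on the same strand, with which it shares 63.6% of its 50-base windows, so that reads can be split between them. It had 392, 1716 and 1475 TPM in wild-type EVs, 745, 1148 and 1593 in ATG7-/- EVs and 2366, 2561 and 873 in ATG12-/- EVs, from 5 to 32 fragments. For cells the values were 4942, 4747 and 2338 TPM in wild type, 8619, 8540.2 and 12739.7 in ATG7-/- and 5264, 7080.5 and 7587 in ATG12-/-. Within each genotype cells were above EVs, by -2.43 ± 0.53 (EV minus cells, log2; limma, adjusted p = 0.00482), -3.37 ± 0.53 (0.00113) and -2.05 ± 0.53 (0.0236) in wild type, ATG7-/- and ATG12-/-. The ATG12-/- call was lost without EV replicate 3 (-1.51, adjusted p = 0.0905) and without cell replicate 1 (-2.19, 0.0528), 2 (-2.02, 0.0663) or 3 (-1.97, 0.0679). The host MIR663AHG was also lower in EVs, 144 ± 74.4 against 1892 ± 362 TPM (SD, n = 9), and was called in all 3 genotypes (-3.23, -4.47 and -4.71 on the log2 scale; limma, adjusted p = 3.16e-07, 1.82e-08 and 6.43e-09).

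MIR663B (chr2:132256966-132257080, -) lies in an intron of ANKRD30BL, a gene that was near 0, with at most 1.73 TPM in any EV library and 0.40 in any cell library. MIR663B itself had 5002, 3562 and 6538 TPM in wild-type EVs, 1529.8, 1462 and 2018 in ATG7-/- EVs and 3371, 1075 and 2149 in ATG12-/- EVs. Cells had 16059.5, 18697 and 14981 TPM in wild type, 13591, 20888 and 23956 in ATG7-/- and 20765, 21471 and 31391 in ATG12-/-. All cell libraries were above all EV libraries, and the EV-minus-cell difference was -2.26 ± 0.34 in wild type (limma, adjusted p = 0.000403), -3.74 ± 0.34 in ATG7-/- (5.23e-06) and -3.74 ± 0.34 in ATG12-/- (5.90e-06). Wild-type EVs were above the EVs of both knockouts in every library, yet the differences of -1.47 ± 0.38 and -1.23 ± 0.38 did not pass (limma, adjusted p = 0.321 for ATG7-/- and 0.454 for ATG12-/-). Nor did the differences in the EV-to-cell step pass (-1.48 and -1.49; adjusted p = 0.329 and 0.305).

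MIR6723 (chr1:632325-632413, -) is annotated on the strand opposite the exon of MTCO1P12, a nuclear copy of the mitochondrial gene for cytochrome oxidase subunit 1. All of its 50-base windows were found opposite MTCO1P12 and 72.5% opposite the mitochondrial gene MT-CO1 itself. It had 2239, 3336 and 3814 TPM in wild-type EVs, 3143, 4538 and 3833 in ATG7-/- EVs and 3105, 4815 and 3068 in ATG12-/- EVs. Among cells, values were 16976, 31078 and 26879.9 TPM in wild type, 22921, 18312 and 17567 in ATG7-/- and 19420.0, 14966 and 18389 in ATG12-/-. No EV library reached the lowest cell library. The difference was -3.49 ± 0.26 in wild type (limma, adjusted p = 6.07e-07), -2.58 ± 0.26 in ATG7-/- (1.76e-05) and -2.43 ± 0.26 in ATG12-/- (3.32e-05). MT-CO1 had 447 ± 159 TPM in EVs and 555 ± 58.7 in cells (SD, n = 9), with ranges that overlapped. The same-strand gene around MIR6723, AL669831.3, had 243 ± 42.8 TPM in EVs and 476 ± 60.4 in cells and was called lower in wild-type EVs (-1.39 ± 0.18; limma, adjusted p = 0.000109).

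The remaining 2 of the 7 lie opposite exons of protein-coding genes. The library kit keeps strand, but the strand setting of the deposited values is not given in the sources used here, so reads from a locus and from its opposite gene cannot be told apart with certainty. MIR3661 (chr5:134225757-134225852, +) lies opposite an exon of PPP2CA, the catalytic subunit of protein phosphatase 2A, which covers 93 of its 96 bases. It had 7255, 10555 and 6295 TPM in wild-type EVs, 5932, 9252 and 4371 in ATG7-/- EVs and 5243, 5442 and 8785 in ATG12-/- EVs. For cells the values were 3082, 3505 and 2302 TPM in wild type, 4815, 6387 and 5933 in ATG7-/- and 7808, 7524 and 6608 in ATG12-/-. EVs were above cells in wild type, by 0.92 ± 0.27 (limma, adjusted p = 0.0215), while in the knockouts the ranges overlapped and the differences were -0.09 ± 0.27 (adjusted p = 0.861) and -0.35 ± 0.27 (0.420). The wild-type call was lost when scaled to protein-coding TPM (0.67, adjusted p = 0.0848), without the variance trend and with sample weights (0.93, 0.0872), and without EV replicate 2 (0.73, 0.0796) or cell replicate 3 (0.72, 0.0966). The genotypes did not differ in this step (-1.02, adjusted p = 0.429 for ATG7-/- and -1.28, 0.263 for ATG12-/-, limma). In cells both knockouts were above wild type in every library, by 1.03 ± 0.20 (limma, adjusted p = 0.0867) and 1.35 ± 0.20 (0.0678), and did not pass. PPP2CA had 23.1 ± 17.2 TPM in EVs and 9.93 ± 3.92 in cells and was not called in any genotype between EVs and cells.

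MIR1282 (chr15:43793659-43793759, -) lies wholly opposite an exon of SERF2, a small basic protein. It had 4435, 1593 and 2735 TPM in wild-type EVs, 3894, 3714 and 4475 in ATG7-/- EVs and 6240.4, 3749 and 7439 in ATG12-/- EVs. The cell libraries had 2843, 2718 and 2586 TPM in wild type, 3020.4, 3214 and 3797 in ATG7-/- and 2074, 1950.2 and 1788 in ATG12-/-. In ATG12-/- EVs were above cells by 1.39 ± 0.29 (limma, adjusted p = 0.00774), and in wild type and ATG7-/- the differences were -0.52 ± 0.29 (adjusted p = 0.20) and 0.05 ± 0.29 (0.953). The ATG12-/- step was higher than the wild-type one by 1.91 ± 0.41, which did not pass (limma, adjusted p = 0.0829). Leaving out ATG12-/- EV replicate 2 or wild-type EV replicate 1 brought this difference past the threshold, and without wild-type EV replicate 1 the wild-type difference passed as well (-0.86, adjusted p = 0.0287). SERF2 had a difference of 1.42 ± 0.50 in ATG12-/- (adjusted p = 0.0826) and -0.14 ± 0.50 in wild type (0.863).

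**Figure D4:**
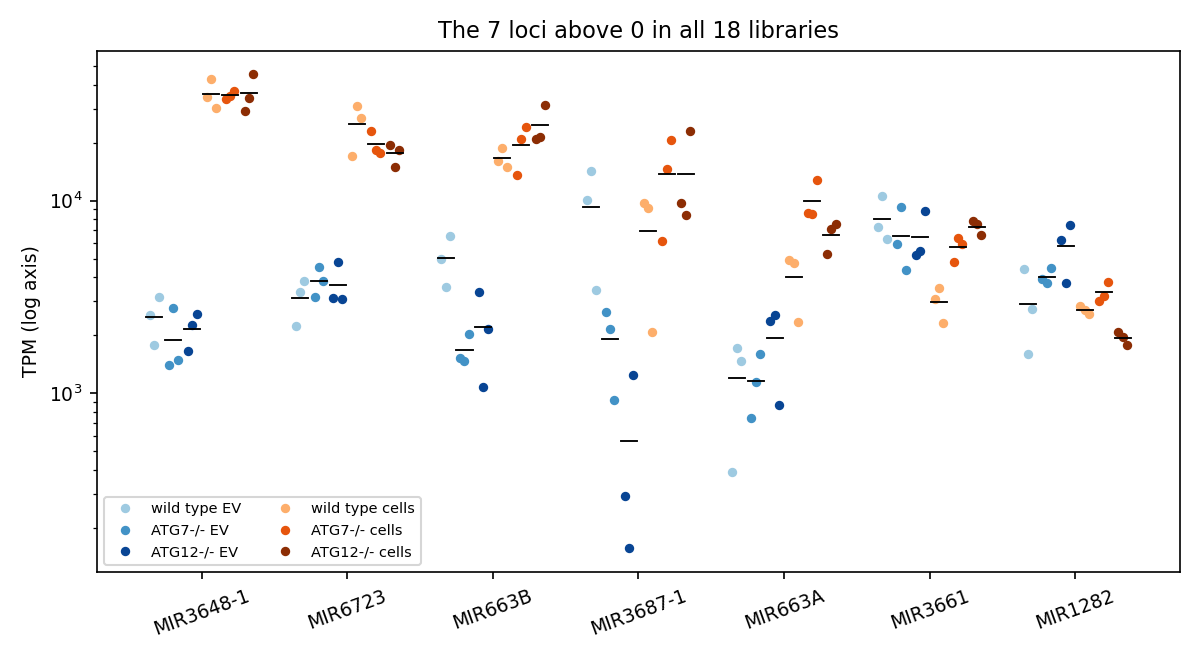
TPM (y axis, log scale) of the 7 loci above 0 in all 18 libraries; points are libraries, lines are group means, blue is EVs and orange cells. MIR3648-1, MIR6723 and MIR663B separate EVs from cells in every library, and MIR3687-1 spreads in EVs from 156 to 14182 TPM.

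**Figure D5:**
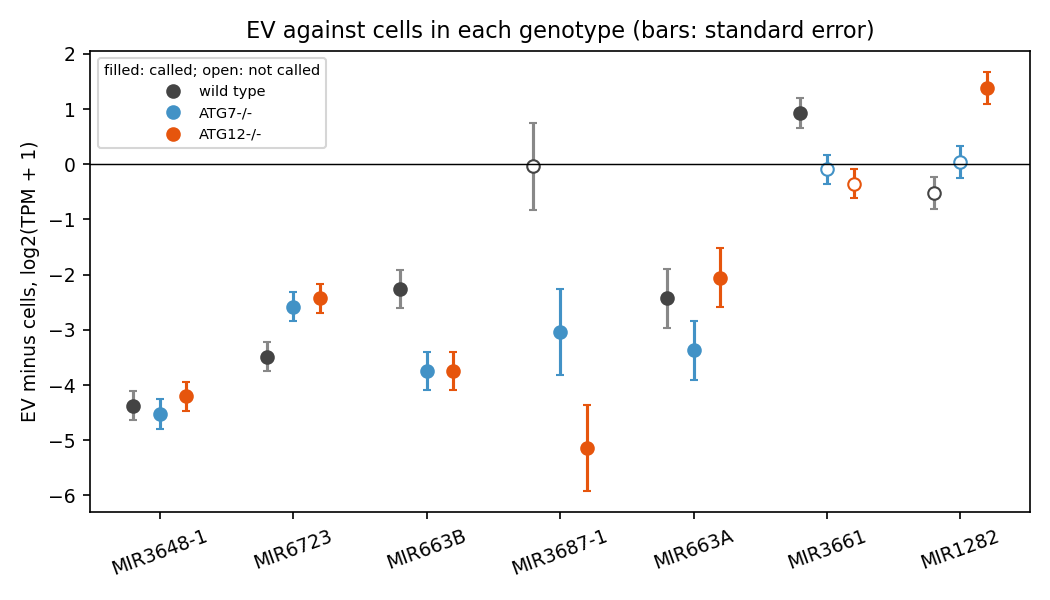
Fitted EV-minus-cell difference in log2(TPM + 1) for the same loci in 3 genotypes, with standard errors; filled points passed an adjusted p of 0.05. Values run from -5.14 for MIR3687-1 in ATG12-/- to 1.39 for MIR1282 in ATG12-/-.

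Over the 80 loci, EVs and cells of wild type differed at 20, of which 19 were lower in EVs and 1, MIR3661, higher; of all genes tested 24.6% were called, 20.6% lower and 4.02% higher. In ATG7-/- 14 loci were called, all lower in EVs (background 11.4%, with 8.68% lower and 2.71% higher), and in ATG12-/- 17 were called, 16 lower and MIR1282 higher (background 11.2%, with 8.97% lower and 2.27% higher). The median difference of the 80 was -2.52, -2.41 and -2.35 on the log2 scale in wild type, ATG7-/- and ATG12-/-, against -0.76, -0.49 and -0.55 for all genes. In wild type the share called, 20 of 80, lies near the background. Many of the calls had little under them: 13, 9 and 10 of them rested on 10 or fewer fragments in the higher group, and in 14, 9 and 11 every library of the lower group was listed at 0. Fitted sizes of loci with a group at 0 depend on the pseudocount and are not bounds. The fragments of such loci are therefore given below without a fitted size, except for MIR215 in the closing section. The rule bears on this direction: a locus could enter through cell libraries alone, and 69 of the 80 were seen in more cell than EV libraries, 9 in equal numbers and 2, MIR566 and MIR1244-1, in more EV libraries. All 80 were above 0 in at least 1 cell library and 34 were listed at 0 in all 9 EV libraries.

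Among the loci seen in 10 to 16 libraries, the fragments of EVs and cells overlapped. MIR3665 (chr13:77698012-77698116, -; wholly opposite an exon of SLAIN1, a microtubule-binding protein) had 0, 28 and 0 fragments in wild-type EVs, 5, 21 and 3 in ATG7-/- EVs and 22, 11 and 5 in ATG12-/- EVs. Its cells had 3, 7 and 6, then 6, 11 and 2, then 7, 16 and 5. The wild-type call (-5.74 ± 1.88; limma, adjusted p = 0.0378) came from 28 EV fragments in 1 library against 16 in 3 cell libraries, and the mean level was 469 TPM in EVs and 468 in cells, so the fitted difference rests on the 2 EV libraries at 0. This call was lost in 8 of 14 other settings, with adjusted p up to 0.154: with a pseudocount of 5, without the filter, without scaling, and without wild-type EV replicate 1 or 3 or any one of the 3 wild-type cell replicates. MIR1279 (chr12:69273157-69273218, -; opposite an exon of CPSF6, a pre-mRNA cleavage factor) had 12, 0 and 2 fragments in wild-type EVs, 41, 7 and 0 in ATG7-/- EVs and none in ATG12-/- EVs, and 1 to 7 in every cell library. In ATG12-/- it was called lower in EVs (limma, adjusted p = 0.0249), with 15 fragments in cells, and the call was lost when any one of the 6 ATG12-/- libraries was left out (adjusted p up to 0.0731).

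MIR762 (opposite an exon of BCL7C, a subunit of SWI/SNF chromatin remodellers) had 48 fragments in EVs, at most 17 in a library, and 18 in cells. It also lies in an intron of MIR762HG on the same strand. MIR6721 (on a partly exonic stretch of AGPAT1, an acyltransferase of phospholipid synthesis, same strand) had 20 fragments from 2 EV libraries and 21 from all 9 cell libraries. MIR4273 (opposite an exon of ZNF717) had 11 from 2 EV libraries and 24 from all 9 cell libraries. It was called lower in wild-type EVs, but could pass the rule and the filter only with cell libraries, so no p is given. MIR6848, partly on an exon of DGAT1, the triglyceride-forming acyltransferase, had 16 fragments in 1 EV library and 15 over 9 cell libraries. MIR1273A, in an intron of RGS22, had 12 in EVs and 23 in cells.

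A few loci with higher mean TPM were seen in fewer libraries. MIR3187, opposite an exon of PLPPR3, had 19, 20 and 0 fragments in wild-type EVs, 0 in all ATG7-/- EVs and 0, 0 and 26 in ATG12-/- EVs, against 5 in all cells. MIR5096, in an intron of the kinase gene BMP2K, had 0 in every EV library and 39 in cells, of which 6, 10 and 6 were in wild type. It was called in wild type, but could pass the rule and the filter only through cell libraries. The direction was thus set by the selection, and no p is given. Windows of MIR5096 were also found in many other transcripts, ACTR3B among them, so its reads cannot be placed with certainty.

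Between knockout and wild-type EVs 14 of the 80 loci could be tested. For ATG7-/- 0 were called, with 2 at an unadjusted p under 0.05, and 0.141% of all genes were called. For ATG12-/- 0 were called, with 4 at an unadjusted p under 0.05, and 0.105% of all genes were called. Leaving out wild-type EV replicate 2 gave 1 call in each, MIR3665, and leaving out ATG12-/- EV replicate 3 gave 1, MIR3687-1, which passed in the difference in EV-to-cell step as well. In cells 71 loci were tested and 1 was called in each knockout, MIR215, against 0.2% of all genes for ATG7-/- and 0.134% for ATG12-/-. At an unadjusted p under 0.05 there were 11 in each. Without ATG12-/- cell replicate 3 there were 3 calls for ATG12-/-, MIR1273A and MIR548O being added. Tests of whether the EV-to-cell step differed by genotype called 1 locus in each knockout, again MIR215, against 0.276% and 0.272% of all genes.

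MIR215 belongs to a cluster with MIR194-1 that is known as a target of p53. It lies at chr1:220117853-220117962 (-), in an intron of IARS2 on the opposite strand, close to MIR194-1 at chr1:220118157-220118241 (-). MIR215 had 150.3, 120.3 and 164 TPM in wild-type cells and was listed at 0 in the other 15 libraries. These are 1, 2 and 2 fragments. The locus entered the test only through these 3 libraries, the 2 knockout comparisons share them, and no p is given. The fitted size of its EV-to-cell step, printed in the closing section, is set by the pseudocount. A count of 0 allows up to 3 fragments, which on a 110-base hairpin come to 169 to 471 TPM in the 6 knockout cell libraries, above each wild-type value. A difference of this size was therefore not detectable in any single knockout cell library, and the libraries together were not put to a count test. Without any one wild-type cell library the locus fell below the filter and was not tested, leaving 0 calls without replicate 2 or 3, and MIR181B2 in place of MIR215 without replicate 1, both for the cells and for the difference in step. MIR194-1 had 0 in wild-type cells, 1, 0 and 0 fragments in ATG7-/- cells and 0, 3 and 1 in ATG12-/- cells, and was not called.

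The loci of shared seeds gave few fragments each. MIR199B, opposite an intron of DNM1, had 1, 5 and 4 fragments in wild-type cells, 5 in other cells and 5 in 1 EV library. It was called lower in wild-type EVs, but could pass the rule and the filter only with cell libraries, so no p is given. The call was lost without wild-type cell replicate 2 or 3. MIR199A1, opposite an intron of DNM2, had 6 fragments, all in cells, and MIR199A2, within an exon of DNM3OS, had 11 in 1 wild-type EV library and 2 in cells. MIR181B2 and MIR181A2 lie in introns of MIR181A2HG. MIR181B2 had 13 fragments, all in cells. It was called lower in ATG7-/- and ATG12-/- EVs, but could pass the rule and the filter only through cell libraries. No p is given for these calls, whose direction was set by the selection. MIR181A2 had 5 fragments in 1 EV library and 6 in cells.

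A group of 3 loci called in every genotype between EVs and cells had no EV fragment. They could pass the rule and the filter only through cell libraries, so the direction of these calls was set by the selection. The genotypes also share one estimate of the spread, so the calls are not separate support. MIR6864 (in an intron of CAMTA2) had 1, 2 and 1 fragments in wild-type cells, 0, 2 and 1 in ATG7-/- cells and 5, 1 and 1 in ATG12-/- cells. MIR1972-1 (opposite an intron of PDXDC1) had 2, 1 and 4, then 0, 1 and 1, then 2, 1 and 1. The ATG7-/- calls of MIR6864 and MIR1972-1 were each lost in 6 of 14 other settings, with sample weights and without ATG7-/- EV replicate 1, 2 or 3 or cell replicate 2 or 3 (adjusted p up to 0.116 and 0.128). MIR4513 (opposite an intron of CSK, the kinase that restrains SRC) had 3, 6 and 0, then 1, 1 and 1, then 1, 4 and 2, and its wild-type call was lost in 3 settings, with sample weights and without wild-type cell replicate 1 or 2 (adjusted p up to 0.0935).

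The position of the loci relative to longer genes differed from that of miRNA genes at large, given as counts with no test. Of the 80, 71 (88.8%) lay within a longer gene on either strand, against 1461 of 1828 (79.9%). On the same strand it was 38 (47.5%) against 1240 (67.8%). An exon of another gene lay opposite in 20 of the 80 against 87 (4.76%), and any gene lay opposite in 49 (61.3%) against 367 (20.1%). MIR1244-1 lies within an exon of PTMA, whose 50-base windows it shares entirely, and MIR3654 shares all of its windows with EEF1G. Both had at most 3 fragments in a library, and reads of these genes and of the hairpins cannot be told apart.

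Loci of well-known microRNAs were mostly at 0, as were miRNA genes at large. Of all 1828 miRNA genes 211 were above 0 in any library and 80 were members. Of 43 genes on 3 lists (the MIR17 cluster with its paralogs, the let-7 family and broadly expressed microRNAs such as MIR21) 0 were among the 80. Of the 43, 4 were above 0 in any library, in at most 2 libraries each: MIR106B, MIR25, MIR93 and MIRLET7I. These shares lie near those of all miRNA genes, so they are no result about the 3 lists. Of 5 p53-related genes 2 were members, MIR215 and MIR194-1. Of the genes with unusual precursors, 12 had a row and 0 were members. All 4 genes in the table on the list near or in ribosomal RNA repeats (MIR663A, MIR663B, MIR3648-1 and MIR3687-1) were members, and they were above 0 in all 18 libraries. This list, like the others, was chosen with earlier results of these data known, so the count is no test of it. MIR6724-1, which was not on that list but lies on the same repeat, was above 0 in 3 libraries.

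Of 24 genes of the microRNA pathway, 0 were called between knockout and wild type, in EVs or in cells (limma; at an unadjusted p under 0.05 there were 2 and 1 in EVs and 3 and 5 in cells). Between EVs and cells of wild type 5 of the 24 were called, with 24.6% of all genes called in that comparison, so the share is no result about the pathway. The Argonaute gene AGO1 was higher in EVs by 1.66 ± 0.36 (adjusted p = 0.00430), and also in ATG7-/- (1.60, 0.0109) and ATG12-/- (2.26, 0.00119); its level was 23.0 ± 6.98 TPM in EVs and 4.49 ± 1.05 in cells (SD, n = 9). RAN, the export GTPase, was higher by 2.48 ± 0.39 (limma, adjusted p = 0.000524), the uridylyltransferase TUT7 by 1.58 ± 0.44 (0.0164) and the RNA-binding protein KHSRP by 1.03 ± 0.36 (0.0471). LIN28A, which blocks let-7 processing, was lower by -1.74 ± 0.41 in wild type (limma, adjusted p = 0.00685) and -1.39 ± 0.41 in ATG7-/- (0.0393). DROSHA (102 ± 83.4 TPM in EVs, 89.8 ± 17.2 in cells), DICER1 (11.7 ± 9.14 and 9.91 ± 9.83), XPO5 (50.4 ± 22.3 and 36.0 ± 6.43) and AGO2 (21.3 ± 25.2 and 12.8 ± 12.6) did not pass.

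At the threshold, the loci with the smallest third-highest value inside it were MIR548I2 (21.2 TPM), MIR548I1 and MIR548I3 (46.3 TPM each), of which the last 2 had the same 3 highest values. Just outside, MIR647, MIR1229 and MIR4257 were each above 0 in 2 libraries, at 422 and 243, 180.2 and 162, and 178 and 149 TPM.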

How the data were processed

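A deposited table holds TPM by the authors for 203027 transcripts and 18 libraries. Salmon 0.14 and DESeq2 stand, without a role, among the tools in the submitters' processing notes. For build, annotation and strand setting the entry is: not given in the sources used here. Transcripts were matched by identifier to GENCODE 29 (202941 found, 86 not) and summed to genes. Of 1881 annotated miRNA genes 53 had no row, each identical in sequence to a listed one. After median-of-ratios scaling, limma 3.58.1 (R 4.3.3) tested log2(TPM + 1) of every gene reaching 1 TPM in 3 or more of the fitted libraries (trend, no block, both-sided, Benjamini-Hochberg over all genes, threshold 0.05). Such folds understate changes of low values, and where some libraries are at 0 they can exceed the difference in mean TPM. EV and cell knockout comparisons used 9 libraries each, others 18. The fits were tested on simulated data. Fragments were estimated after the data were seen; no count test was run. Same-numbered libraries did not deviate together (correlations -0.034 to 0.026), which shows no pairing by number but cannot exclude one. Named loci were those called (at most 15 per comparison), the 15 highest by mean TPM, the 15 seen in most libraries, fixed lists and overlapping genes; the text prints some of them. Members and lists were chosen with earlier results of these data known. Alternatives were another pseudocount, filter, scaling or weighting, a block, and leaving out each library. The values of 1 locus are not reported here.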

Additional observations from a re-analysis of the deposited data

Results flagged for a closer look

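For MIR215 the fit of the EV-to-cell step differed between each knockout and wild type by 7.46 on the log2(TPM + 1) scale, in a test of the difference itself. The locus passed the filter on low values only through 3 wild-type cell libraries with 5 estimated fragments in all, and was listed at 0 in the other 15 libraries. The size is set by the pseudocount, both differences share the wild-type libraries, and without any one wild-type cell library the locus was not tested. No single knockout cell library could show the difference in cells at this depth, and the libraries together were not put to a count test.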

How the results depend on the processing

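With another pseudocount, filter or scaling, each count of called loci stayed within 1.5 times. Without the trend and with sample weights, 9 loci were called between ATG7-/- EVs and cells in place of 14. No paired design was found; with a replicate block the counts were 19, 14 and 16 for EVs against cells in wild type, ATG7-/- and ATG12-/-, 0 and 0 in EVs, 1 and 1 in cells and 1 and 1 for the differences in step. Leaving out 1 library at a time gave 15 to 20, 7 to 16 and 10 to 14 for EVs against cells, 0 to 1 and 0 to 1 for knockout EVs, 0 to 1 and 0 to 3 for knockout cells, and 0 to 2 and 0 to 2 for the differences in step. Of 16 called values of the 7 loci seen in all libraries 13 held in every setting run, and of 39 called values of other loci 13 did, counting a locus that fell below the filter as lost. Signs turned in differences that were not called. Without scaling these were MIR3648-1 in ATG7-/- cells (-0.00946), MIR3687-1 between wild-type EVs and cells (0.46) and MIR3661 between ATG7-/- EVs and cells (0.13). With protein-coding scaling they were MIR3648-1 in ATG7-/- cells (-0.0573) and ATG12-/- cells (-0.18) and MIR1282 between ATG7-/- EVs and cells (-0.43), and without the trend MIR3648-1 in ATG12-/- cells (-0.0360) and MIR3687-1 between wild-type EVs and cells (0.0802). The cause was not tested. Leaving out 1 library gave ranges across 0 for MIR1282 (-0.0404 to 0.126) and MIR3661 (-0.386 to 0.152) between ATG7-/- EVs and cells, MIR3687-1 between wild-type EVs and cells (-0.793 to 0.577), MIR3648-1 in ATG12-/- EVs (-0.329 to 0.0792), ATG7-/- cells (-0.0714 to 0.238) and ATG12-/- cells (-0.123 to 0.209), and MIR3661 (-0.538 to 0.00505) and MIR663A (-0.410 to 0.647) in ATG7-/- EVs. Depth limits loci with few fragments: a count of 0 allows up to 3.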
